A study of Mus musculus with 24 samples.

Results

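The mRNA levels of 9 genes of cytokine signal transduction, the transcription factors Stat3, Stat4, Stat5a, Stat5b and Stat6 and the feedback inhibitors Socs1, Socs2, Socs3 and Cish, were followed after myocardial infarction (MI) in mice, in CD11b+ cells taken from the spleen or from the bone marrow. These genes were chosen by name, and every array probe whose RefSeq transcript carries their symbol was taken, whatever its values, which gave 15 probes out of 39429 and 9 genes out of 20659 with a symbol. The members were measured by 2 probes for Stat3 and Stat5b, 3 for Stat6 and Socs2, and a single probe for Stat4, Stat5a, Socs1, Socs3 and Cish. CD11b, the integrin chain encoded by Itgam, marks neutrophils, monocytes and macrophages, and part of the NK and dendritic cells. The groups were WT mice, HDC-KO mice, which lack histidine decarboxylase, the enzyme that makes histamine, and STAT6-KO mice. All were male and on the Balb/C background, and were described as 10 weeks old when purchased. They were taken as controls without MI or at MI 1 week, MI 2 weeks or MI 4 weeks. Each genotype was measured in each tissue and at each time point on 1 array, hybridised with RNA of cells pooled from 5 mice, so that the spread between mice was not measured.

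Of 24 arrays, 22 were complete, 11 of each tissue. The table of the control of HDC-KO spleen stopped after 229 spots and that of STAT6-KO bone marrow at MI 1 week after 84, none of them a member, and neither was used. HDC-KO spleen therefore had no control, and 10 pairs of spleen and bone marrow arrays remained. The 4 arrays of a genotype in a tissue lay on 1 slide, so genotype within a tissue and slide cannot be told apart. Time point and position on the slide cannot be told apart either. Spleen and bone marrow of a genotype lay on separate slides, so within a genotype tissue and slide cannot be told apart. The pairs of a genotype share these slides, so they are not independent of each other. Throughout, a level is the log2 signal of a probe minus the 75th percentile of its array, so a level of 0 is the signal that 75% of the probes do not exceed, and a difference of 1 is a doubling. The 75th percentile signal was 928 to 2461 on spleen arrays and 963 to 1780 on bone marrow arrays, and 70.4% to 79.8% of probes were well above background by the scanner's call. All 15 member probes were well above background on all 22 arrays, and the 10 spots of the first Stat3 probe and of the first Socs2 probe differed within an array with a median SD of 0.07 and 0.06. Differences were tested by limma across all probes, and an adjusted p under 0.05 was taken as passing. Since a condition had no second array, the error was the variation over time points, genotypes or pairs.

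As a check of the preparations, Itgam was at 3.52 to 4.83 on spleen arrays and at 5.10 to 5.85 on bone marrow arrays, so the gene of the sorted marker was high everywhere and higher in bone marrow. As a check of the genotype labels, Stat6 was lower on STAT6-KO than on WT arrays of the same tissue and time point on all 3 probes, but the MI 4 weeks array labelled STAT6-KO spleen stood apart. Its levels on the second and the third Stat6 probes were 0.20 and 0.73, within the WT spleen ranges of -0.43 to 1.08 and 0.05 to 1.29. Its first Stat6 probe, at 2.12, was below the 4 WT spleen arrays, and its Ccl24, a chemokine gene that STAT6 activates in macrophages, was at -4.30, the lowest of the 11 spleen arrays. Results that include this array are given with and without it where the call differs.

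Cytokine receptors without kinase activity of their own are bound by Janus kinases, which phosphorylate STAT proteins after the cytokine binds. STAT dimers then enter the nucleus and activate genes, among them those of the CIS and SOCS proteins, which bind receptors or kinases and damp the same signal. STAT3 serves IL-6, IL-10 and G-CSF, STAT4 serves IL-12 in NK and T cells, STAT5A and STAT5B serve GM-CSF, IL-3, IL-2 and growth hormone, and STAT6 serves IL-4 and IL-13, which turn macrophages towards an alternatively activated state. Stat5b, Stat5a and Stat3 are neighbours on the chromosome in the GRCm38.p6 annotation.

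Genes of the CIS and SOCS family are known to carry STAT or interferon response sites near the start of transcription. The stretches of Cish, Socs3 and Socs1 are shown because these are the feedback genes in which such a string was found. For Socs2 no such sequence was at hand, so it was not searched. The sequences are from RefSeq, GRCm38.p6, on the strand of the gene, and capitals mark a match to TTCNNNGAA, the palindrome that STAT dimers bind, or to 2 GAAA repeats with 2 bases between them, as in interferon-stimulated response elements. The Cish stretch covers chr9:107296654-107296683 (+ strand), from 5 bases before the start to 25 after it. The Socs3 and Socs1 stretches are the 250 bases before the start, at chr11:117969367-117969616 (- strand) and chr16:10785537-10785786 (- strand).

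Cish: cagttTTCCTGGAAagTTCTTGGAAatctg

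Socs3: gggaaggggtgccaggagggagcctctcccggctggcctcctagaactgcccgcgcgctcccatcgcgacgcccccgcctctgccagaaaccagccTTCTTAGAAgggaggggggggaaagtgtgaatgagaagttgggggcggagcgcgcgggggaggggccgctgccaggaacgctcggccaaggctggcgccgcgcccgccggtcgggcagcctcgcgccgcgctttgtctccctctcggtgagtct

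Socs1: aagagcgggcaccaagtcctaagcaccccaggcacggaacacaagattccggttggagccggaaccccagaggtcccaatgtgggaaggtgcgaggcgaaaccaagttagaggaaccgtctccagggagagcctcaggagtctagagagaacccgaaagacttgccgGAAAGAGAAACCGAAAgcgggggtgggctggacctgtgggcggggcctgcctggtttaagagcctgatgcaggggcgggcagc

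Windows from 250 bases before to 50 after the start, 11 in all, were at hand for 8 of the 9 genes, all but Socs2. On both strands, TTCNNNGAA was found at 2 places in Cish, within its first 20 transcribed bases, and at 1 place in Socs3, at positions -154 to -146, counted so that -1 is the base before the start. Of 32851 such windows around annotated starts of genes, 8.3% held the motif and 0.457% held it at 2 or more places. The GAAA repeat was found in Socs1 at 2 places, which overlap, at -83 to -74 and at -77 to -68, and at 1 place in the second window of Stat4, against 3.44% of all windows with a match and 0.225% with 2 or more. The palindrome with 4 bases in place of 3 between TTC and GAA, which STAT6 prefers, was present in 6.95% of all windows and in none of the 11. A match is a string of letters and was not tested for binding.

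**Figure D1:**
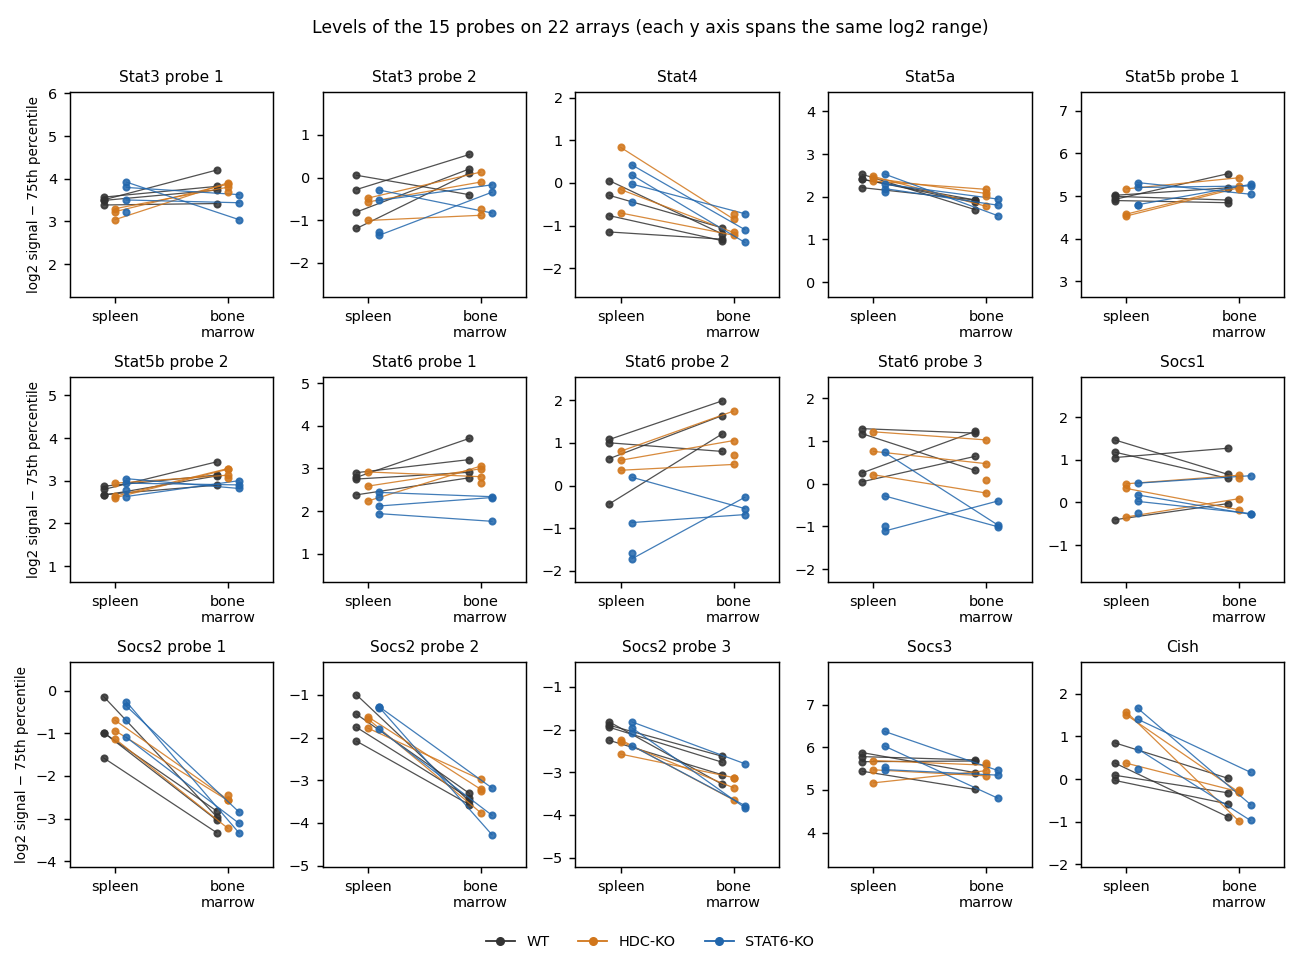
Level of each of the 15 probes (log2 signal minus the 75th percentile of the array) on 11 spleen and 11 bone marrow arrays, 1 point per array, coloured by genotype, with lines joining the 10 pairs of the same genotype and time point. The 3 Socs2 probes were higher on every spleen array than on any bone marrow array, whereas Stat5b and Stat3 overlapped.

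Between the tissues, the clearest differences among the 9 genes were in the feedback gene Socs2, followed by Cish and Stat4, all higher in the spleen. Socs2 was 4.48-fold, 3.87-fold and 2.16-fold higher in spleen-derived than in bone marrow-derived CD11b+ cells on its 3 probes, Cish 2.51-fold and Stat4 1.97-fold. Stat5a was 1.42-fold higher. Stat6 and Stat3 on their second probes and Stat5b on its second probe were lower in the spleen by 1.49-fold, 1.39-fold and 1.25-fold. In all, 9 of the 15 probes and 7 of the 9 genes passed, 6 probes higher and 3 lower in the spleen, in a comparison in which 54.9% of the 33478 probes tested passed (22.3% higher, 32.6% lower). The median difference of the 15 probes was 0.20, beside -0.17 for all probes. The share of members that passed was therefore close to that of all probes, and 3 of the 15 had spleen and bone marrow levels that did not overlap, beside 13.4% of all probes.

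Socs2 binds the growth hormone receptor and other activated receptors and is itself induced through STAT5. Its first probe was at -1.58 to -0.14 on the spleen arrays (median -0.94) and at -3.34 to -2.44 on the bone marrow arrays (median -2.95). The second probe was at -2.08 to -0.997 and -4.28 to -2.98, and the third at -2.57 to -1.82 and -3.83 to -2.62. No bone marrow array reached the lowest spleen array on any of the 3 probes. The differences were 2.16 (SE 0.15, adjusted p = 4.5e-07), 1.95 (SE 0.16, adjusted p = 1.4e-06) and 1.11 (SE 0.14, adjusted p = 2.9e-05), with the spleen higher in 10 of 10 pairs each time. Within 1 genotype alone, where each tissue is 1 slide, the first probe differed by 2.11 in WT, 1.87 in HDC-KO and 2.53 in STAT6-KO, and each passed.

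Cish encodes CIS, which competes with STAT5 for the activated receptor. It was at -0.03 to 1.66 in the spleen (median 0.71) and at -0.99 to 0.16 in the bone marrow (median -0.32), and 9 of the 11 spleen arrays were above every bone marrow array, the exceptions being WT control and WT MI 1 week. The difference was 1.33 (SE 0.22, adjusted p = 0.00026), higher in 10 of 10 pairs, with pairs from 0.41 to 2.57. Within genotypes it was 0.76 in WT, 1.69 in HDC-KO and 1.73 in STAT6-KO, and passed in each. The other feedback genes did not pass. Socs3, which blocks signalling through gp130 and the G-CSF receptor, was at 5.17 to 6.37 in the spleen and 4.81 to 5.70 in the bone marrow (difference 0.32, adjusted p = 0.082). It passed with quantile normalization (0.45, adjusted p = 0.012) and without the HDC-KO MI 2 weeks pair (0.39, adjusted p = 0.046). Socs1, an inhibitor of Janus kinases downstream of interferons, was at -0.40 to 1.47 and -0.28 to 1.27 (difference 0.13, adjusted p = 0.49).

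Among the transcription factors, Stat4 was at -1.15 to 0.83 in the spleen (median -0.15) and at -1.39 to -0.72 in the bone marrow (median -1.16). The spleen array was the higher of the pair in 10 of 10 pairs, by 0.17 to 1.68, and the fitted difference was 0.98 (SE 0.16, adjusted p = 0.00027). Stat5a was at 2.11 to 2.53 and 1.56 to 2.17, also higher in 10 of 10 pairs (0.51, SE 0.10, adjusted p = 0.0011). With WT arrays alone, Stat4 and Stat5a differed by 0.69 and 0.54 and did not pass (adjusted p = 0.061 and 0.069). In STAT6-KO and HDC-KO alone, Stat4 passed (1.26, adjusted p = 0.025, and 1.07, adjusted p = 0.040) and Stat5a did not (0.57, adjusted p = 0.13, and 0.42, adjusted p = 0.20).

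The remaining STAT genes gave smaller differences that depended on the probe. Stat3 was lower in the spleen on its second probe, at -1.35 to 0.05 in the spleen and -0.88 to 0.54 in the bone marrow (-0.47, SE 0.19, adjusted p = 0.048), while its first probe, at 3.04 to 3.92 and 3.04 to 4.20, differed by -0.21 (adjusted p = 0.29). Stat5b was lower on its second, at 2.60 to 3.05 and 2.82 to 3.44 (-0.32, SE 0.11, adjusted p = 0.029), and its first probe, at 4.53 to 5.32 and 4.85 to 5.53, differed by -0.25 (adjusted p = 0.10). Stat6 was lower on its second probe, at -1.72 to 1.08 and -0.68 to 1.99 with all genotypes included (-0.58, SE 0.22, adjusted p = 0.041), while the other 2 probes differed by -0.28 (adjusted p = 0.080) and 0.20 (adjusted p = 0.49). The spleen was lower in 8 of 10 pairs for each of these 3 passing probes. The calls of Stat3, Stat5b and Stat6 held in 7, 10 and 10 of 21 alternatives. None held in any genotype alone or without the WT MI 1 week pair, and with quantile normalization the adjusted p was 0.054, 0.18 and 0.060. Stat5b also did not pass without the MI 4 weeks array labelled STAT6-KO spleen (-0.31, adjusted p = 0.051).

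**Figure D2:**
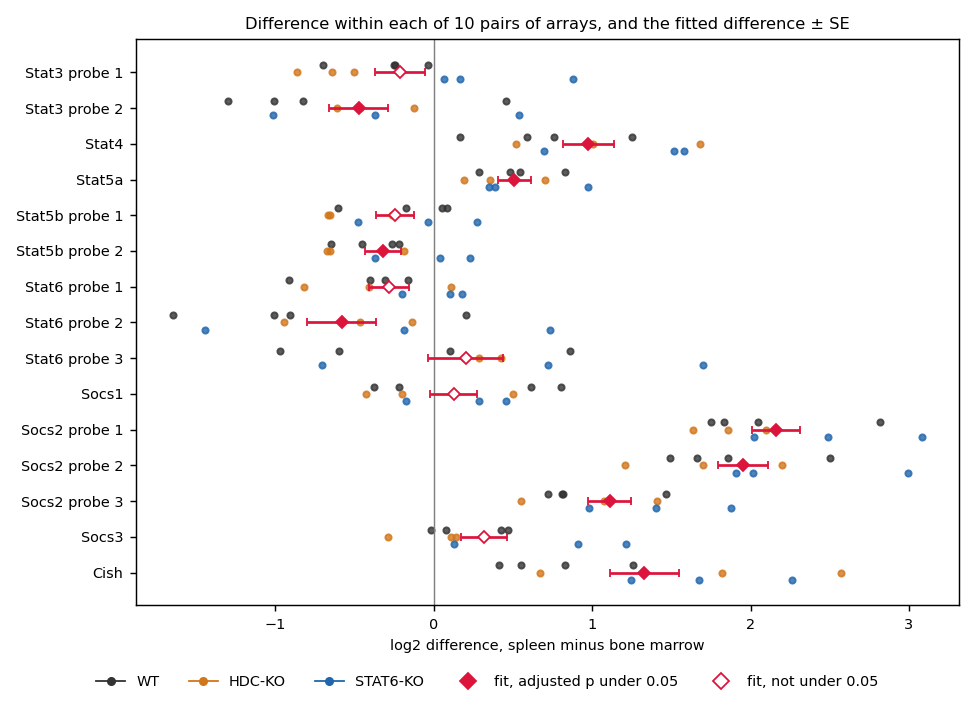
Log2 difference, spleen minus bone marrow, of each probe (rows) in each of the 10 pairs (small points, coloured by genotype), with the limma estimate and its SE (diamonds and bars, filled where the adjusted p was under 0.05). All 10 pairs of Socs2, Cish, Stat4 and Stat5a lie to the right of 0, and the Socs2 estimates are 2.16, 1.95 and 1.11.

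The 2 preparations differed in cell type markers over the same pairs. The counts below stand beside 22.3% of all probes higher and 32.6% lower in the spleen. All 7 monocyte and macrophage genes, all 6 B cell genes, 5 of 7 NK genes and 5 of 7 T cell genes were higher in the spleen, whereas all 7 immature neutrophil genes, 4 of 5 mature neutrophil genes, all 5 basophil and mast cell genes and all 6 CD11b+ myeloid genes were lower. Of the T cell genes Cd3d was lower (-1.50). Of the others, 3 of 4 plasma cell genes, 3 of 5 dendritic cell genes and 1 of 7 interferon-induced genes were higher, and of 5 measured erythroid genes 1 was higher and 1 lower. The log2 summed signal of the NK genes was 1.95 to 4.94 on spleen arrays and 0.33 to 1.76 on bone marrow arrays, without overlap, and all 7 NK genes were well above background on every array. That of the T cell genes was 3.30 to 5.29 and 3.85 to 4.61, with overlap, and that of the immature neutrophil genes 6.71 to 7.82 and 8.04 to 8.88. The part of these markers in the differences of Stat4, Stat5a, Cish and Socs2 was not tested, and in such bulk samples fewer cells of a type and less RNA per cell cannot be told apart.

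Other genes of the pathway, from lists of receptors, kinases and regulators, and STAT targets, passed between the tissues in 60.6%, 52.6% and 63.2% of those tested, close to the 54.9% of all probes. Of 33 receptor genes, 15 were higher and 5 lower in the spleen. The largest increases were in receptors of lymphocyte cytokines, Il2rb (3.05), Il23r (2.74), Il21r (2.57) and Il7r (1.91). Among those lower in the spleen were the oncostatin M receptor gene Osmr (-1.69), and Csf2ra and Csf2rb (-0.75 and -0.51), the chains of the GM-CSF receptor. Of 19 kinases and regulators, 4 were higher, Socs5 (1.97), Socs7 (0.79), Stat2 (0.54) and Jak2 (0.34), and 6 were lower, led by Pias3 (-1.71), Cbl (-1.15), Pias4 (-1.005) and Jak3 (-0.50). Of 19 STAT targets tested, 7 were higher, led by Tbx21 (3.76), Pdcd1lg2 (3.08), Ccl24 (2.28) and Mrc1 (2.22). Another 5 were lower, led by Osm (-1.90), Il18rap (-1.57), Chil3 (-1.08) and Bcl2l1 (-0.91). The list medians were 0.30 for receptors, -0.10 for kinases and regulators and 0.21 for STAT targets, beside -0.17 for all probes.

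In STAT6-KO mice the only member that passed against WT was Stat6, the deleted gene, in both tissues, and the size of the difference depended on the probe. On WT bone marrow arrays the first probe was at 2.78, 3.70, 2.91 and 3.21 (control, MI 1, 2 and 4 weeks), and on STAT6-KO bone marrow arrays at 1.76, 2.34 and 2.32 (control, MI 2 and 4 weeks). The second probe was at 0.80, 1.64, 1.21 and 1.99 in WT and at -0.68, -0.27 and -0.54 in STAT6-KO. The third was at 0.31, 1.23, 0.64 and 1.19 in WT and at -1.01, -0.40 and -0.96 in STAT6-KO. The genotypes did not overlap on any of the 3 probes, beside 14% of all probes with this separation. Stat6 was lower by 1.91-fold (-0.93, SE 0.20, adjusted p = 0.048), 3.87-fold (-1.95, SE 0.28, adjusted p = 0.014) and 3.17-fold (-1.66, SE 0.32, adjusted p = 0.034). Of 32768 probes tested in bone marrow, 4.34% passed. No probe of Stat6 passed when only the arrays of these genotypes entered the fit, and none passed in any of the fits without the control, MI 2 weeks or MI 4 weeks arrays.

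In the spleen the second Stat6 probe was at 1.00, 0.63, -0.43 and 1.08 in WT (control, MI 1, 2 and 4 weeks) and at -0.87, -1.59, -1.72 and 0.20 in STAT6-KO. The third was at 1.17, 0.26, 0.05 and 1.29 in WT and at -0.29, -0.98, -1.11 and 0.73 in STAT6-KO, and the first at 2.38, 2.79, 2.75 and 2.90 and at 1.94, 2.34, 2.44 and 2.12. Every STAT6-KO array was below the WT array of its time point on all 3 probes, yet the groups overlapped on each. Stat6 was lower by 2.96-fold on the second probe (-1.56, SE 0.30, adjusted p = 0.047), while the third (-1.10, SE 0.23, adjusted p = 0.054) and the first (-0.50, SE 0.15, adjusted p = 0.12) did not pass, in a comparison in which 1.97% of 31981 probes passed. The call of the second probe held in 4 of 13 alternatives. It did not pass with normexp background correction (adjusted p = 0.42), quantile normalization (0.057), no filter on dim probes (0.055) or only the arrays of the 2 genotypes (0.062), nor in any fit that left out a whole time point. Without the MI 4 weeks array labelled STAT6-KO spleen, the second and the third probes passed (-1.86, adjusted p = 0.039, and -1.33, adjusted p = 0.042), and the first did not (-0.47, adjusted p = 0.19). All 3 probes kept a signal well above background in STAT6-KO cells. Where they lie relative to the deleted part of the gene is not given in the sources used here, and a probe outside it would not check the knockout.

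**Figure D3:**
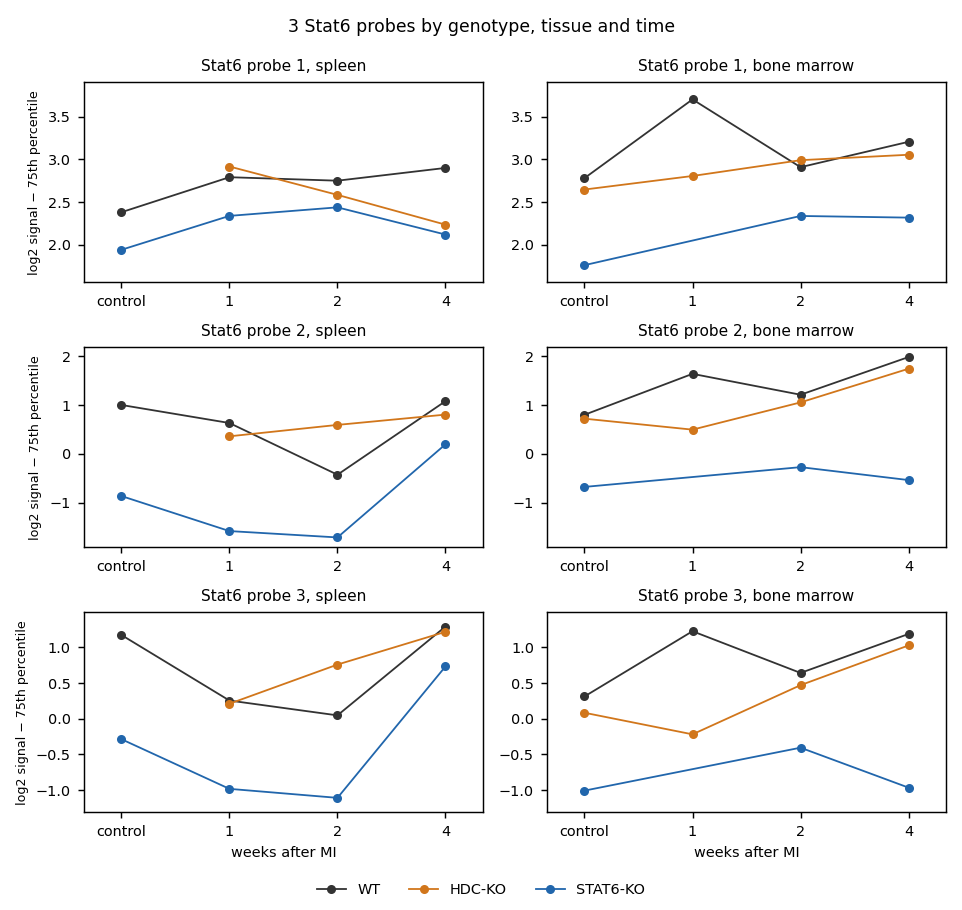
Level of the 3 Stat6 probes (rows, log2 signal minus the 75th percentile of the array) by time point in the spleen (left) and bone marrow (right), 1 point per array, with time points as categories and a line bridging the missing STAT6-KO bone marrow array at MI 1 week. STAT6-KO lies below WT at every shared time point, and the STAT6-KO spleen array at MI 4 weeks (0.20 and 0.73 on the second and the third probes) lies within the range of the WT spleen arrays.

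Among the STAT targets, Ccl24 was the most lowered in STAT6-KO cells. In WT spleen it was at 0.70, 0.21, -0.39 and -0.32 and in STAT6-KO spleen at -3.27, -2.77, -3.55 and -4.30, without overlap (-3.52, SE 0.23, adjusted p = 0.0014). In the bone marrow it was at -2.81 to -2.01 in WT and at -5.31 to -4.73 in STAT6-KO (-2.75, SE 0.29, adjusted p = 0.0052). Ccl24 thus separated the genotypes in both tissues, the MI 4 weeks array labelled STAT6-KO spleen included. Mgl2, a lectin gene of alternatively activated macrophages, was also lower in the spleen (-1.53, SE 0.22, adjusted p = 0.020), and no other target passed there. No receptor and no kinase or regulator passed in the spleen. In the bone marrow Junb (-1.15), Il2rg (-1.35), the common gamma chain shared by the IL-4 receptor, and Tyk2 (-0.75) were lower and Il5ra (1.13) was higher.

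The feedback genes and the other STAT genes did not pass between STAT6-KO and WT. In the spleen Cish differed by 0.68 (SE 0.23, adjusted p = 0.13) and Stat4 by 0.57 (SE 0.14, adjusted p = 0.077), with STAT6-KO above WT in 4 of 4 pairs for both. In HDC-KO spleen, compared with the same WT arrays, Cish differed by 0.86 (SE 0.25, adjusted p = 0.11) and Stat4 by 0.60 (SE 0.16, adjusted p = 0.090), higher in 3 of 3 pairs. No member passed between HDC-KO and WT by limma in the spleen, where 2.63% of probes passed, or in the bone marrow, where 0.424% did. At an unadjusted p under 0.05, 3 and 0 of the 15 member probes were counted, beside 22.1% and 21% of all probes, and none passed the methods' t-test in either tissue. Of the listed genes, Il7r (1.64) was higher and Mgl2 (-1.39) lower in HDC-KO spleen. The 2 knockouts share their WT arrays, so these values are not independent of each other.

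The genotype effects were also compared between the tissues. For Cish the STAT6-KO effect was larger in the spleen than in the bone marrow by 0.70 (SE 0.33, adjusted p = 0.23) and the HDC-KO effect by 0.88 (SE 0.33, adjusted p = 0.16). No member passed either test by limma, in which 4.53% and 0.678% of all probes passed, and 1 member probe in each had an unadjusted p under 0.05, beside 21.4% and 20.5% of all probes. For Stat6 the STAT6-KO effect differed between tissues by 0.43, 0.39 and 0.56 on the 3 probes, with adjusted p between 0.34 and 0.66.

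Socs1 in the spleen separated the WT arrays after MI from the knockouts. In WT spleen it was at -0.40 in the control and at 1.05, 1.47 and 1.18 at MI 1, 2 and 4 weeks. In HDC-KO spleen it was at -0.34, 0.33 and 0.44 at the same time points, and in STAT6-KO spleen at 0.03 in the control and at -0.25, 0.18 and 0.45 after MI. The 3 WT arrays after MI were thus above all 7 knockout spleen arrays, and the WT control was the lowest of the 11. In the fit of all 11 spleen arrays the difference from WT was -0.90 in HDC-KO, which has no control (SE 0.31, adjusted p = 0.15). In STAT6-KO it was -0.72 (SE 0.28, adjusted p = 0.18), and neither passed. Of the 4 fits that each left out a time point, only that without the control arrays called Socs1, at -1.09 in HDC-KO (SE 0.18, adjusted p = 0.029) and -1.11 in STAT6-KO (SE 0.18, adjusted p = 0.028), where 4.62% and 3.55% of all probes passed. That fit leaves out the low WT control, the array that goes against the pattern, so it is no separate support for it. With only the HDC-KO and WT spleen arrays, Socs1 passed too (-1.09, SE 0.18, adjusted p = 0.026). The WT control has no HDC-KO counterpart and does not enter that difference. In the bone marrow WT was at -0.03, 1.27, 0.66 and 0.57, HDC-KO at 0.58, 0.09, -0.17 and 0.64, and STAT6-KO at -0.26, -0.28 and 0.63 without MI 1 week, and the genotypes overlapped.

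The summed signal of the interferon-induced genes was higher on the same WT arrays than in the WT control. The log2 summed signal of the 7 genes of this list was 4.90 in WT spleen control and 7.10, 6.65 and 6.21 at MI 1, 2 and 4 weeks, and it was 4.32 to 5.58 in HDC-KO spleen. In STAT6-KO spleen it was 4.23, 5.04 and 4.82 up to MI 2 weeks and 7.22 at MI 4 weeks, an array whose Socs1 level, 0.45, was that of the knockouts. In WT bone marrow it was 4.16, 7.72, 6.16 and 4.79 and Socs1 was highest at MI 1 week too. In HDC-KO bone marrow the summed signal was 4.54, 4.36, 4.35 and 5.16. In STAT6-KO bone marrow it was 2.77 in the control, 3.78 at MI 2 weeks and 6.57 at MI 4 weeks, so it was high at MI 4 weeks in both tissues of STAT6-KO. The gene whose pattern over the 22 arrays was most like that of Socs1 was Igtp, an interferon-inducible GTPase gene (r = 0.87), followed by Itpka (0.83) and Gvin1 (0.82). Igtp was picked by this correlation on the same arrays, so its levels are no separate support. It was at 2.50 in WT spleen control and at 4.71, 4.39 and 4.40 after MI. In HDC-KO spleen it was at 2.86 to 3.03 and in STAT6-KO spleen at 2.07 to 3.68. In the fit of all spleen arrays none of the 7 interferon-induced genes passed by limma against WT in HDC-KO or STAT6-KO. Their median differences were -1.90 and -1.08, and 7 and 1 of them had an unadjusted p under 0.05. Of all probes, 22.1% did so in HDC-KO spleen and 7260 of 31981 in STAT6-KO spleen. The part of interferon activity in the Socs1 levels was not tested.

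**Figure D4:**
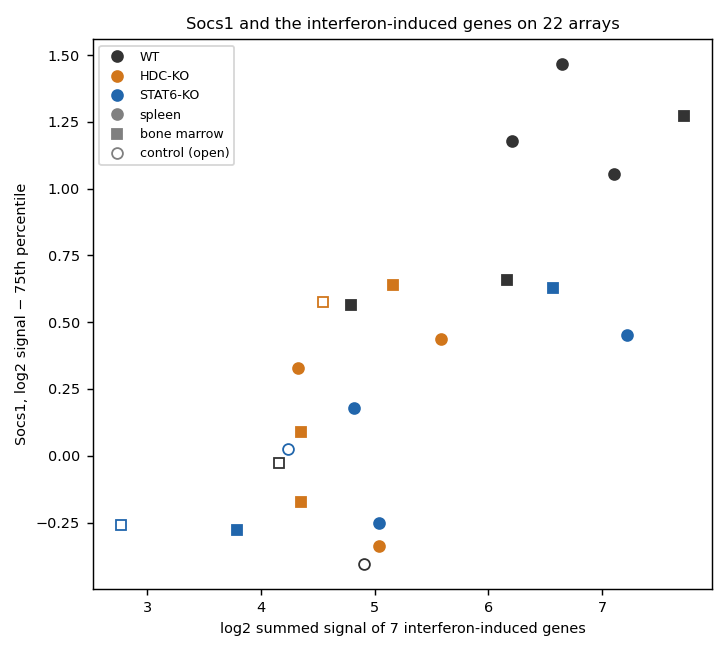
Level of Socs1 (log2 signal minus the 75th percentile of the array) against the log2 summed signal of 7 interferon-induced genes on the same scale, 1 point per array over 22 arrays, coloured by genotype, with circles for spleen, squares for bone marrow and open symbols for controls. The WT spleen arrays after MI and the WT bone marrow array at MI 1 week lie at the top right, with Socs1 from 1.05 to 1.47, and the STAT6-KO spleen array at MI 4 weeks lies to the right at 0.45.

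Over genotypes and tissues, few members passed between the time points. At MI 1 week only the first Stat6 probe passed against control, higher by 1.47-fold (0.56, SE 0.15, adjusted p = 0.041) and higher in 4 of 4 pairs, where 5.71% of 33471 probes passed. The other 2 Stat6 probes differed by -0.11 (adjusted p = 0.85) and -0.28 (adjusted p = 0.60), so the increase was not shared by the probes of the gene, and it held in 4 of 15 alternatives and in none that left out a genotype of a tissue. Before and after, the first probe was at 2.38 and 2.79 in WT spleen, 1.94 and 2.34 in STAT6-KO spleen, 2.78 and 3.70 in WT bone marrow and 2.65 and 2.81 in HDC-KO bone marrow. The MI 1 week array was below the control in 4 of 4 pairs for Socs2 on its first probe (-0.64, SE 0.19, adjusted p = 0.059), Cish (-0.64, adjusted p = 0.14), Stat4 (-0.56, adjusted p = 0.10) and Socs3 (-0.32, adjusted p = 0.25), and none of these differences passed. Socs2 passed without the STAT6-KO bone marrow arrays (-0.75, adjusted p = 0.039) and among probes well above background on every array (adjusted p = 0.044).

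Stat4 in the spleen had its lowest level at MI 1 week and its highest at MI 2 weeks in each genotype. It was at -0.29, -1.15, 0.05 and -0.77 in WT, at -0.70, 0.83 and -0.15 in HDC-KO from MI 1 week on, and at 0.18, -0.45, 0.42 and -0.03 in STAT6-KO. With spleen arrays alone Stat4 was lower at MI 1 week than in the control (-0.82, SE 0.19, adjusted p = 0.042), a fit in which 7.81% of probes passed. In the bone marrow, with levels from -1.39 to -0.72, the order of the time points differed between genotypes. The genes most like Stat4 over the 22 arrays were Ehd3, Pde7a and Zap70 (r = 0.94 each). Zap70, a kinase gene of the T cell receptor, was at 0.13, -1.03, 1.27 and 0.14 in WT spleen. It was picked by this correlation on the same arrays, so its levels are no separate support. The summed T cell genes were at 4.06, 3.59, 4.65 and 4.35 and the summed NK genes at 4.13, 3.31, 4.94 and 4.50 in the same WT spleen arrays, both lowest at MI 1 week. Over all arrays at MI 1 week, 4 of 6 B cell genes, 3 of 7 T cell genes and 1 of 7 NK genes (Eomes) were lower, beside 3.3% of all probes. There 2 of 6 CD11b+ myeloid genes and 1 of 7 interferon-induced genes (Irf7, 2.19) were higher, beside 2.41% of all probes. The part of these markers in the Stat4 levels was not tested.

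**Figure D5:**
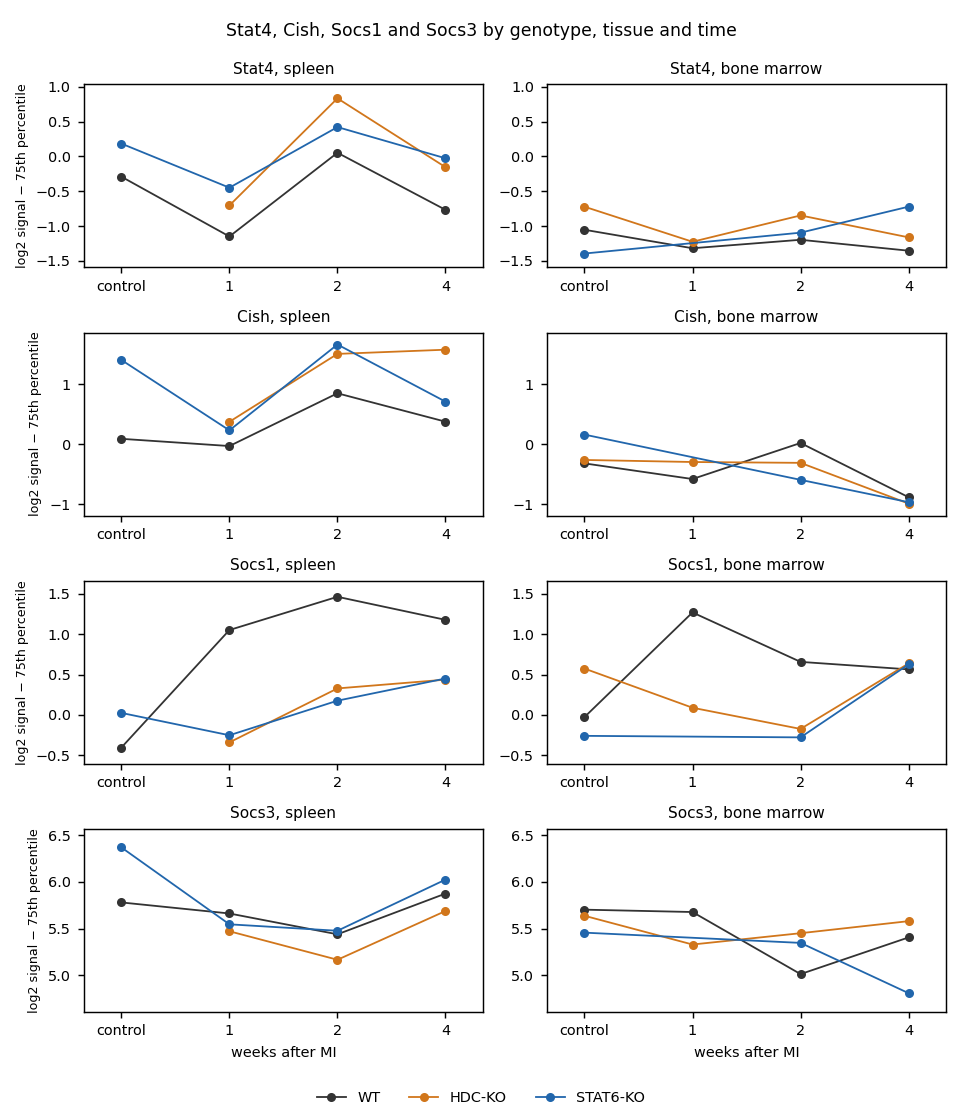
Levels of Stat4, Cish, Socs1 and Socs3 (rows, log2 signal minus the 75th percentile of the array) by time point in the spleen (left) and bone marrow (right), 1 point per array and 1 line per genotype, with time points as categories, HDC-KO spleen without a control and a line bridging the missing STAT6-KO bone marrow array at MI 1 week. Stat4 in the spleen is lowest at MI 1 week in the 3 genotypes, and Socs1 in the spleen after MI is highest in WT (1.05 to 1.47).

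At MI 2 weeks and MI 4 weeks no member passed by limma, where 0.0747% and 2.53% of all probes did, and 2 and 3 of the 15 member probes had an unadjusted p under 0.05, beside 11.4% and 18.1% of all probes. Socs3 was below the control in 5 of 5 pairs at MI 2 weeks (-0.47, SE 0.16, adjusted p = 0.30). At MI 4 weeks Socs1 differed by 0.73 (SE 0.28, adjusted p = 0.19) and the 3 Stat6 probes by 0.36, 0.64 and 0.59 (adjusted p = 0.18, 0.25 and 0.28), each above the control in 5 of 5 pairs. The pathway lists gave few calls over time. At MI 1 week 5 of 33 receptor genes were lower, beside 3.3% of all probes, among them Il7r (-2.37), Il2ra (-1.67), Lifr (-1.02) and Il2rb (-0.91). At MI 4 weeks Lifr (-1.84) and the survival gene Bcl2l1 (-0.45) were lower, and the STAT targets Osm (0.99) and Pim1 (1.11) were higher. At MI 2 weeks only Bcl2l1 (-0.63) passed.

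The members varied together only in part. Over the 22 arrays the second and the third Stat6 probes followed each other (r = 0.88, and 0.97 after removing the tissue means), whereas the first and second did so less (0.69 and 0.65). The first 2 Socs2 probes gave r = 0.98, and the first and the third 0.86, which dropped to 0.26 within tissues. Stat3 and Stat5b had weaker correlations between their own probes (r = 0.52 and 0.49). Between genes, Stat4 and Cish gave r = 0.83, and 0.61 within tissues. The first Stat3 probe and Socs3, a target of STAT3, gave 0.50 over all arrays and 0.81 within tissues. The second Stat3 probe and Socs3 gave only 0.09 and 0.38, and the first Stat5b probe and Socs3 gave 0.31 and 0.69. These are correlations over arrays that share a tissue difference and an array scaling, and are given as descriptions.

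By the same measure, the genes most like the other members on their brightest probes, among 14072 candidates, were Tbc1d4, Efnb1 and Ctnnd2 for Socs2 (r = 0.97 each), Fam189b and Ddb2 (0.91 each) for Cish, and Pla2g7 (0.87), Nrros (0.85) and Sirpb1b (0.82) for Socs3. For Stat5a they were Gnl2 (0.93), Ndufs3 (0.92) and Psmg4 (0.91), and for Stat5b Olfr215 (0.94), Gm12657 and Aspscr1 (0.92 each). Stat3 had Lhx9 (0.84), Cnppd1 and Lsm10 (0.83 each), and Stat6 had Grk5 and Rhbdd2 (0.84 each) and Mau2 (0.82).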

How the data were processed

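Total RNA of CD11b+ cells was labelled with Cy3 and hybridised by the authors to Agilent Mouse 4x44K arrays, 1 colour, and the deposited values are scanner intensities made by Agilent Feature Extraction 11.0.1.1. The background-corrected processed signal was used, without control spots and 3055 outlier spots. No spot was saturated. Spots of a probe were averaged after log2 and subtraction of the array's 75th percentile, and symbols were assigned through the RefSeq transcript of each probe. Tests were made by limma 3.58.1 (R 4.3.3) on probes well above background on at least 2 arrays of a fit, with Benjamini-Hochberg adjustment over all probes. Tissue was tested with genotype and time point as a pair block, genotype within a tissue with time point as an additive term, time with genotype and tissue as a block, and the difference of genotype effects between tissues with time point within tissue. With 1 array per condition, p-values measure the spread over these terms, which may be technical. The precision is limited by the number of arrays.

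The members and gene lists were chosen with earlier results of these data known. Named were all members, at most 4 list genes past the threshold in each direction of a comparison (by their brightest probe), and the 3 genes most correlated with each member. Some genes that met this rule are not reported here. Alternatives were normexp background correction (on the median signal, since the tables lack the mean), quantile and median scaling, other filters, blocks and sets of arrays, and the methods' t-test with a fold change over 2. Within-genotype fits of the tissue difference were added after seeing the data. Ranges, promoter matches and figures were made with Python 3.11.15 (matplotlib 3.10.9). The self-test on simulated data recovered the differences put in. Its noise was drawn independently for each array, without slide effects, so it cannot speak to those.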

Additional observations from a re-analysis of the deposited data

How the results depend on the processing

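The number of member genes that passed was recomputed 145 times over the 10 comparisons and stayed within 1.5 times the reported number in 113. The 14 member differences that passed kept their direction in all 258 refits and passed in 181. Of the differences that did not pass, 12 of 1857 refits did.

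For STAT6-KO against WT in the spleen (1 gene, Stat6), 0 genes passed with normexp, quantile normalization, no filter, 1 probe per gene, only the 2 genotypes or the methods' t-test after Benjamini-Hochberg. When a time point was left out, 0 to 1 passed, and the 1 was Socs1, without the control arrays, not Stat6. In the bone marrow (1 gene), 0 passed with only the 2 genotypes or the t-test after adjustment, and 0 to 1 without a time point. The t-test with a fold change over 2, unadjusted, called 1 gene in each tissue for STAT6-KO and 0 for HDC-KO. HDC-KO against WT in the spleen (0 genes) gave 1, Socs1, with only the 2 genotypes, and 0 to 1 without a time point, the 1 again being Socs1. MI 1 week (1 gene, Stat6) gave 0 with normexp, quantile normalization, no filter or bone marrow arrays only, and 2 among probes well above background on every array. Without a genotype of a tissue it gave 0 to 1, and the 1 was Socs2, without the STAT6-KO bone marrow arrays, not Stat6. The tissue difference (7 genes) gave 4 with 1 probe per gene, 2 with WT, 3 with STAT6-KO and 3 with HDC-KO arrays only, and 4 to 6 without a pair. The causes were not tested, other than the fewer arrays or probes of the fits that leave some out.

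Normexp moved the median of all probes by 0.34 for STAT6-KO in the spleen, 0.39 for MI 1 week and 0.46 for the STAT6-KO difference between tissues, and no member that passed changed direction under any scaling. The tissue difference, tested within pairs of the same genotype and time point, gave 7 genes without the pair block too.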
